A study of Homo sapiens with 4 samples.

Results

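A set of 10 transcription factors of stomach and gut lineages was followed in NUGC3, an established human stomach cancer cell line, as gene rows matched by symbol: SOX9, SOX2, KLF4, KLF5, GATA6, GATA4, HNF4A, CDX2, ELF3 and FOXA1. All 10 of these genes were found among the 53777 Ensembl genes of the table, 1 row each. RNA had been sequenced from 2 libraries of wild-type NUGC3 cells and 2 libraries of NUGC3 cells with a MYC knockdown, MYC being a transcription factor that drives growth. The labels give no treatment or time, and the sources used here do not say by what means MYC was lowered. No label calls the replicates separate cultures, so each p-value here reflects the spread of these libraries alone, which may be technical.

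In the stomach and intestine, cell identity is held by factors of a few families that act together on shared enhancers. FOXA1 and GATA factors are known as pioneer factors that open chromatin in endoderm, HNF4A is a nuclear receptor of gut and liver epithelium, and SOX2 and CDX2 are known as opposing factors of stomach and intestinal fate. SOX9 marks progenitors of many endodermal epithelia, KLF5 is linked to proliferating and KLF4 to differentiating epithelial cells, and ELF3 is an epithelial ETS factor. MYC is classically described as acting with MAX on the E-box CACGTG.

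The values are taken as FPKM, fragments per kilobase of transcript, scaled to library size, a unit inferred from the column sums. Levels of different genes are thus compared per length. MYC itself read 82.9 and 82.0 FPKM in the wild-type pair against 65.0 and 75.8 FPKM in MYC knockdown replicates 1 and 2, so the targeted RNA was only slightly lower (limma adjusted p = 0.237). FPKM does not keep the depth. If the steps seen among low values of genes with 1 transcript are 1 fragment each, the libraries held between 21.4 M and 29.8 M fragments (M for 1e+06). Interferon-stimulated genes stood apart in 1 library. The 20 of 24 that were tested lay at a median of 2.60 above wild type on the log2 scale in MYC knockdown replicate 1. In replicate 2 this median was 0.12. IFI27, among the 20, reached 1 FPKM in the knockdown libraries only.

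The sequence upstream of 4 of these genes is shown because KLF5 and FOXA1 were among those higher in the knockdown, KLF4 is the relative of KLF5, and CDX2 was lower. RefSeq (GRCh38.p14) gave start-site windows for 8 of the 10 genes. SOX9 and GATA4 were not matched. Each line holds the 250 bases before an annotated start, read 5′ to 3′ on the gene's strand: KLF4 at chr9:107489770-107490019 (minus strand), the second of the KLF5 windows at chr13:73058755-73059004 (plus), FOXA1 at chr14:37595250-37595499 (minus) and CDX2 at chr13:27969316-27969565 (minus). Capitals mark every match, on either strand, to one of 4 motifs: the E-box is CACGTG, the CCAAT box has the letters of its name, the GC box is GGGCGG and the TATA box is TATAAA. No match overlaps one of another motif in these 4 windows. All 4 windows lie within the GENCODE 29 spans of their genes given below, so each precedes a RefSeq start inside the gene.
KLF4: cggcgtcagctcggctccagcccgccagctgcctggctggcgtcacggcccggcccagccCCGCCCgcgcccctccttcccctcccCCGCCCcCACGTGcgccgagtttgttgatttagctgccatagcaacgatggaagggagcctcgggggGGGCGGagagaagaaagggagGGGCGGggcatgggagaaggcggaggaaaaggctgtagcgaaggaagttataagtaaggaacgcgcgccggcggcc
KLF5: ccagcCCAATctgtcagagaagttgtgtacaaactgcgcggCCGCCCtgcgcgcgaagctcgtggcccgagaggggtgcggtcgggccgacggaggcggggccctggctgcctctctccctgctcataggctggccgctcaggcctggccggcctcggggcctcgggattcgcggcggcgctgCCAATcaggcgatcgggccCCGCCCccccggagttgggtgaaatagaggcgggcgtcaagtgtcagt
FOXA1: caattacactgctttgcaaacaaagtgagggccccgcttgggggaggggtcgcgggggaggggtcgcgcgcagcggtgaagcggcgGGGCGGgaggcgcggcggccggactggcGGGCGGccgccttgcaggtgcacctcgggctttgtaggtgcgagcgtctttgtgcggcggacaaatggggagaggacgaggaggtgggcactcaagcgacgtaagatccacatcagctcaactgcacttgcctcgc
CDX2: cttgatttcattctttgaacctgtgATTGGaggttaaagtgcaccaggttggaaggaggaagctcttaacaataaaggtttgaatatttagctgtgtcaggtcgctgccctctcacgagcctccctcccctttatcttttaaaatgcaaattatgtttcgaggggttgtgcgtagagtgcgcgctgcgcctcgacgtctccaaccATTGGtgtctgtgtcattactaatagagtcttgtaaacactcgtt

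Of the 10 windows that RefSeq gave for 8 of the genes, only that of KLF4 held CACGTG, which began 157 bases before the start. Among 35116 such windows of all genes, 6.34% held an E-box, 32.0% a CCAAT box, 42.6% a GC box and 10.7% a TATA box. The KLF4 window also held 4 GC boxes, the second KLF5 window held 2 GC boxes and 2 CCAAT boxes, FOXA1 2 GC boxes and CDX2 2 CCAAT boxes. GC content was 69.2% for KLF4, 70.8% for this KLF5 window, 67.2% for FOXA1 and 45.2% for CDX2, beside a median of 58.0% over all windows. The first KLF5 window, not printed, lies at chr13:73054726-73054975, with a GC content of 40.8%, 1 TATA box and no match to the other motifs. The data do not tell which start was used, for KLF5 or for the other genes. A match describes letters in the window and no binding was measured in this study.

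In wild-type cells, ELF3, KLF5 and SOX9 were by far the most abundant of the 10 factors. ELF3 stood at 43.0 ± 0.926 FPKM, KLF5 at 38.7 ± 0.693 FPKM and SOX9 at 38.4 ± 0.0636 FPKM (SD, n = 2), levels above those of 87.1% to 88.5% of the 20269 protein-coding genes listed. KLF5 and SOX9 overlapped in their wild-type values, and both lay below ELF3 in each library. A middle group held KLF4 at 9.65 ± 0.325 FPKM, FOXA1 at 8.38 ± 0.636 FPKM, GATA6 at 8.38 ± 0.686 FPKM and GATA4 at 5.51 ± 0.318 FPKM. FOXA1 and GATA6 did not differ beyond their spread, while KLF4 lay above both and GATA4 below both. CDX2 was low at 2.90 ± 0.134 FPKM, and SOX2 and HNF4A did not exceed 0.17 and 0.15 FPKM.

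**Figure D1:**
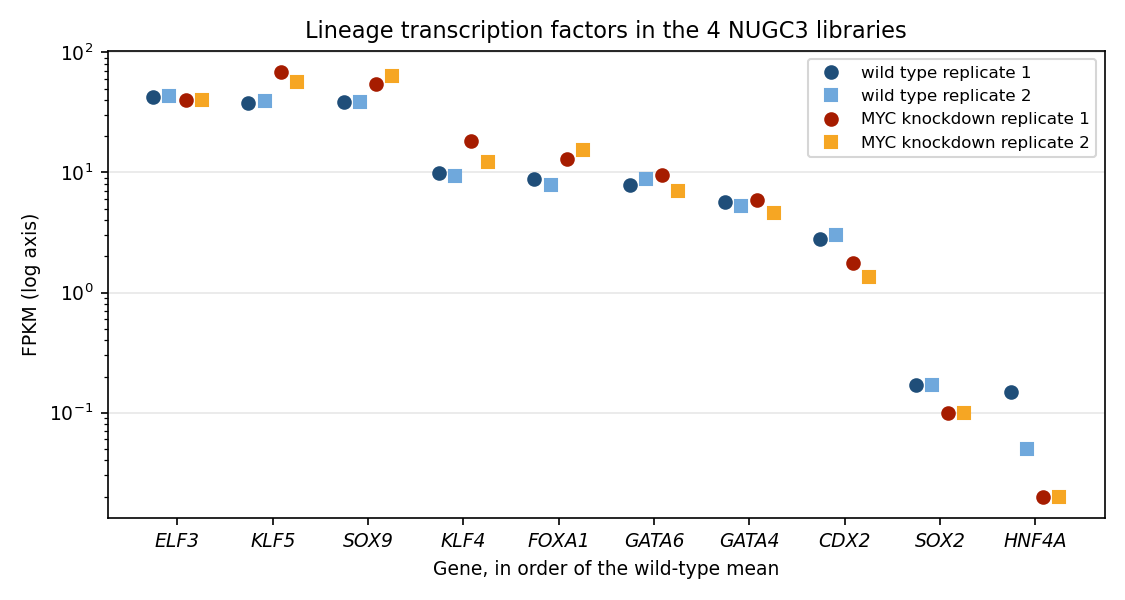
FPKM (log axis) of each of the 10 transcription factors in the 4 libraries, 1 point per library, ordered by the wild-type mean. ELF3, KLF5 and SOX9 lie between 38.3 and 68.7 FPKM in every library, and SOX2 and HNF4A lie at or below 0.17 FPKM.

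The comparison asked how these levels differ when MYC is knocked down. KLF5, SOX9, FOXA1 and KLF4 were higher in both knockdown libraries, by 1.62, 1.55, 1.68 and 1.58 times in mean FPKM, KLF4 unevenly. CDX2 was at 0.542 times its wild-type mean, and ELF3 and the GATA factors lay close to wild type. A gene entered the test, on log2(FPKM + 1), if 2 or more libraries had 1 FPKM or above, which kept 8 of the 10 (SOX2 and HNF4A were too low). With limma, 0 of these 8 passed an adjusted p of 0.05, as did 0% of the 12953 genes tested, whose smallest adjusted p was 0.0556. The 10 factors and the 0.10 threshold were chosen with earlier results of these data known, so the contrast at 0.10 is a description only. At 0.10, 3 of the 8 were called, all higher, where limma called 10.4% of all genes tested, 5.5% as higher and 4.91% as lower. Of the genes called, 52.9% were higher, and 73.7% were after scaling to equal FPKM sums, where the same 3 factors were called. At an unadjusted p under 0.05 there were 5 of the 8, beside 25.9% of all genes. The knockdown pair lay wholly above the wild-type pair for 4 genes (KLF5, SOX9, FOXA1 and KLF4) and wholly below it for 2 (CDX2 and ELF3). Over all genes tested, the groups did not overlap for 58.6%, with 33.4% higher and 25.2% lower, so 6 of 8 is not far from the background. The median log2 change was 0.27 over the 8 genes and 0.04 over all genes tested.

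Without MYC knockdown replicate 1 or 2, 5 of the 8 were called at 0.10 by limma, where the same fits called 40.9% and 41.4% of all genes tested. Without wild type replicate 1 or 2, limma called 0 of the 8, beside 0% and 0.00772% of all genes. These counts thus moved together with the count over all genes. In the former fits the spread comes from the close wild-type pair and in the latter from the wider knockdown pair, whose median SD over all genes was 0.14 against 0.05 on the log2 scale. With no filter on low values, 0 of the 10 were called at 0.10, and 0 of all 24879 genes.

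**Figure D2:**
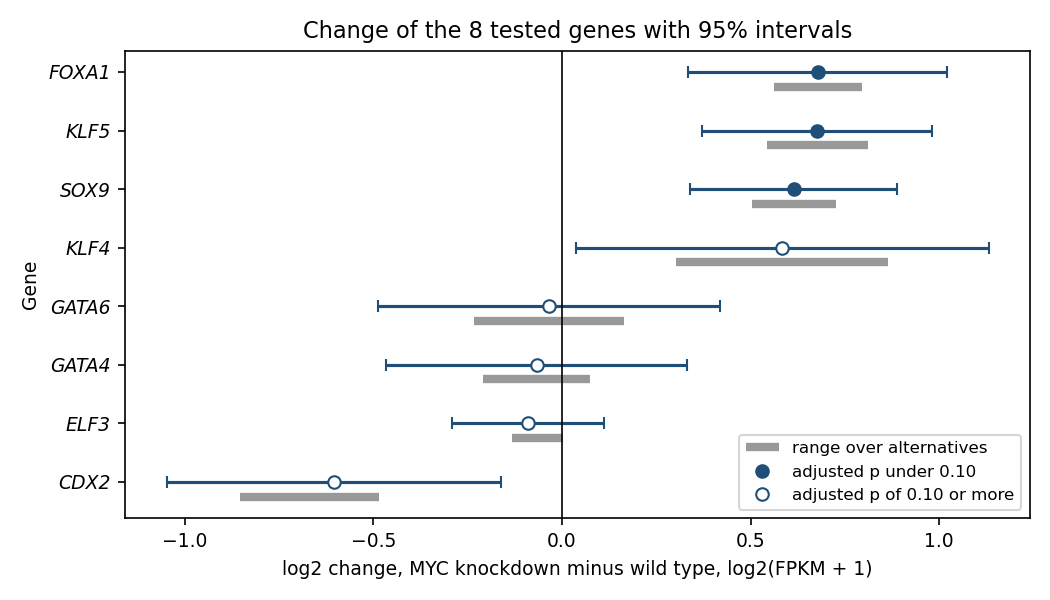
Log2 change (MYC knockdown minus wild type, on log2(FPKM + 1)) of the 8 tested genes, with points for the limma estimate, bars for 95% intervals, grey bands for the range over the alternative settings and filled points for an adjusted p under 0.10. The intervals of FOXA1, KLF5, SOX9, KLF4 and CDX2 lie to 1 side of 0, and those of GATA4, GATA6 and ELF3 include it.

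Among the Kruppel-like zinc finger factors, KLF5 (ENSG00000102554; chromosome 13, 73054976 to 73077542, plus strand, in GENCODE 29 on GRCh38) read 38.3 and 39.2 FPKM in the wild-type pair against 68.7 and 56.9 FPKM in the knockdown pair. Both knockdown values were well above both wild-type values, with replicate 1 the higher. Its log2 change of 0.68 had a standard error of 0.12 (limma adjusted p = 0.0651), so KLF5 was called at 0.10 and not at 0.05. KLF4 (ENSG00000136826; chromosome 9, 107484852 to 107490482, minus strand) read 9.88 and 9.42 FPKM in the wild-type pair against 18.4 and 12.1 FPKM in the knockdown pair. KLF4 too was higher in both knockdown libraries, but unevenly, and its log2 change of 0.58 with a standard error of 0.21 was not called (limma adjusted p = 0.176). It lay 0.86 above the wild-type mean on the log2 scale in MYC knockdown replicate 1, the library with the high interferon-stimulated genes, and 0.30 in replicate 2. The part of the interferon-stimulated genes in this gap was not tested. Of 12 alternatives, only 2 called KLF4 at 0.10 by limma. In both, a single knockdown library stood for its group and borrowed the spread of the wild-type pair. KLF5 was 3.87 and 4.16 times KLF4 in the wild-type libraries and 3.74 and 4.69 times in the knockdown libraries, so their ratio overlapped between the groups.

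SOX9 (ENSG00000125398; chromosome 17, 72121020 to 72126420, plus strand), an HMG box factor, read 38.4 and 38.3 FPKM in the wild-type pair against 54.8 and 64.1 FPKM in the knockdown pair. Here MYC knockdown replicate 2 was the higher, the reverse of the KLF pair. SOX9 had a log2 change of 0.61 and a standard error of 0.10 (limma adjusted p = 0.0648). The other HMG box member, SOX2, a stomach and foregut factor, was listed with 0.17 and 0.17 FPKM in the wild-type pair against 0.10 and 0.10 FPKM in the knockdown pair. At the inferred depth these are about 11.2 and 8.69 fragments in wild type and 4.77 and 4.86 fragments in the knockdown, numbers with a large counting error. SOX2 was not tested and no fold is given.

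FOXA1 (ENSG00000129514; chromosome 14, 37589984 to 37596059, minus strand), the forkhead pioneer factor, read 8.83 and 7.93 FPKM in the wild-type pair against 12.8 and 15.3 FPKM in the knockdown pair. The groups were apart and, as for SOX9, replicate 2 was the higher. Its log2 change of 0.68 with a standard error of 0.13 was called at 0.10 (limma adjusted p = 0.0749). The call was lost with quantile normalization (limma adjusted p = 0.109), with replicate number as a block (0.108) and with no filter on low values (0.173). It was also lost when wild type replicate 1 or 2 was left out, where the log2 change was 0.75 and 0.61. Of 12 alternatives, 7 kept the call at 0.10 by limma. HNF4A (ENSG00000101076), the nuclear receptor, was listed at 0.15 and 0.05 FPKM in the wild-type pair against 0.02 and 0.02 FPKM in the knockdown pair, at or near 0 throughout, and was not tested.

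CDX2 (ENSG00000165556; chromosome 13, 27962137 to 27971139, minus strand), the homeobox factor of intestinal fate, was the tested factor with the lowest level. It read 2.80 and 2.99 FPKM in the wild-type pair against 1.78 and 1.36 FPKM in the knockdown pair. The groups did not overlap, and the log2 change of −0.60 (standard error 0.17) missed 0.10 (limma adjusted p = 0.121). Of 11 alternatives, 4 called CDX2 at 0.10 by limma. Among them were median-of-ratios scaling (limma adjusted p = 0.0987) and quantile normalization (0.0988). The other 2 were left with 1 knockdown library, where its log2 change was −0.72 with replicate 2 and −0.49 with replicate 1. It was not called with replicate number as a block (limma adjusted p = 0.184), with no filter on low values (0.263) or when either wild-type library was left out. On log2(FPKM + 0.1), which shrinks low values less, its change was −0.85 and was not called (limma adjusted p = 0.127).

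GATA6 (ENSG00000141448; chromosome 18, 22169443 to 22202528, plus strand) read 7.89 and 8.86 FPKM in the wild-type pair against 9.49 and 6.97 FPKM in the knockdown pair. GATA4 (ENSG00000136574) read 5.73 and 5.28 FPKM in the wild-type pair against 5.85 and 4.62 FPKM in the knockdown pair. For both GATA factors the knockdown values lay on either side of the wild-type values, with replicate 1 the higher. The 95% interval of the log2 change ran from −0.49 to 0.42 for GATA6 and from −0.47 to 0.33 for GATA4, so a change of the size seen for KLF5 lies outside both, while smaller changes in either direction do not. GATA6 was 1.38 and 1.68 times GATA4 in wild type and 1.62 and 1.51 times in the knockdown, with overlapping groups.

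ELF3 (ENSG00000163435; chromosome 1, 202007945 to 202017188, plus strand), the ETS factor, read 42.3 and 43.6 FPKM in the wild-type pair against 40.4 and 40.2 FPKM in the knockdown pair. Its log2 change of −0.09 had a 95% interval from −0.29 to 0.11 (limma adjusted p = 0.499), and with equal FPKM sums the estimate was 0.0028. ELF3 was the most abundant of the 10 factors in both wild-type libraries and ranked behind KLF5 and SOX9 in both knockdown libraries. Within a library, where scaling cancels, KLF5 was 0.904 and 0.899 times ELF3 in wild type and 1.70 and 1.42 times ELF3 in the knockdown. SOX9 was 0.908 and 0.879 times ELF3 in wild type and 1.36 and 1.60 times ELF3 in the knockdown. CDX2 was 0.0729 and 0.0780 times SOX9 in wild type and 0.0325 and 0.0212 times SOX9 in the knockdown. All 3 ratios separated the groups. Each sets a factor wholly higher in the knockdown against one wholly lower, so the separation followed from the values above and adds no support. The ratio of KLF5 to SOX9 overlapped, at 0.995 and 1.02 in wild type and 1.25 and 0.887 in the knockdown. With 2 libraries against 2, no exact permutation test can give a two-sided p below 0.333.

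**Figure D3:**
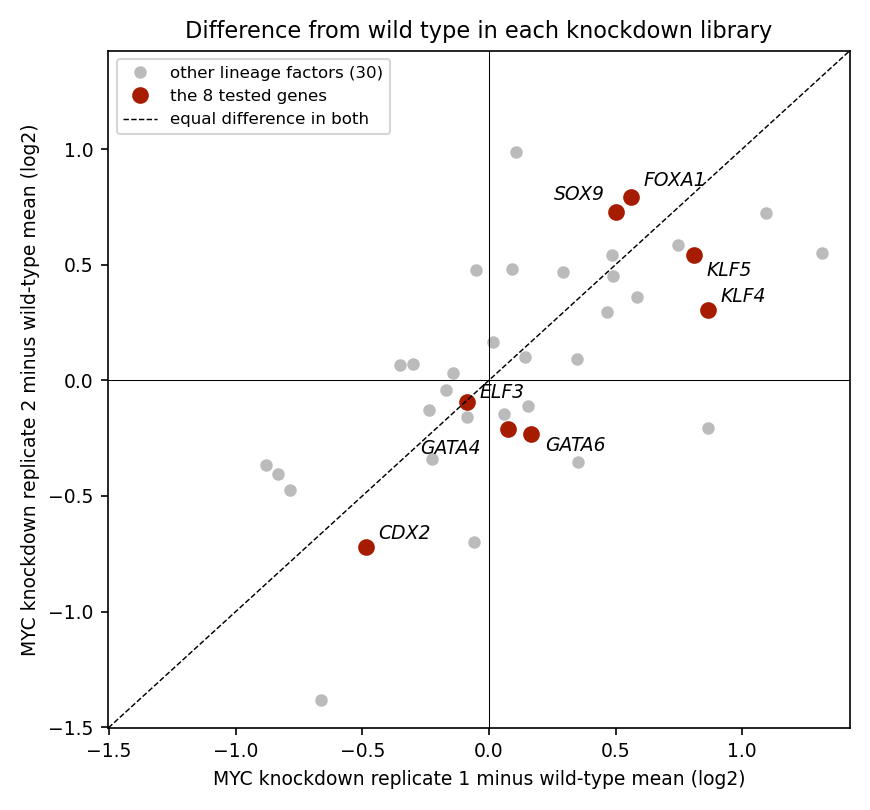
Difference from the wild-type mean on log2(FPKM + 1) in MYC knockdown replicate 1 (x axis) and replicate 2 (y axis) for the 8 tested genes (red) and 30 other lineage factors (grey), with a dashed line of equal difference. SOX9 and FOXA1 lie above the line, KLF5 and KLF4 below it, and CDX2 is negative in both libraries.

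Other factors of the same families and lineages, made a list of 50 genes. Of 30 tested, 4 were called higher and 1 lower at 0.10 by limma (16.7%, beside 10.4% of all genes tested) and 0 at 0.05. An unadjusted p under 0.05 was met by 10, beside 25.9% of all genes, and the median log2 change was 0.06. The knockdown pair lay wholly above the wild-type pair for 12 of the 30 and wholly below it for 8. Over all genes tested these shares were 33.4% and 25.2%, so the counts are not far from the background. SOX6 and IRX5, both among the 12, reached 1 FPKM in the knockdown libraries only. KLF6, a Kruppel-like factor, and KLF10, one induced by TGF-beta, had log2 changes of 0.51 (limma adjusted p = 0.0581) and 0.47 (0.0672). ELF1, an ETS relative of ELF3, had a log2 change of 0.67 (limma adjusted p = 0.0572), and KLF7 one of −0.63 (0.0890). IRX3, a homeobox factor named after its values were seen because its mean was under 5 FPKM, had a log2 change of 0.91 (limma adjusted p = 0.0814). EHF, a close ETS relative of ELF3, was the highest of this list and read 74.5 and 73.0 FPKM in the wild-type pair against 59.8 and 77.5 FPKM in the knockdown pair, with overlapping groups. CDX1, ATOH1 and SOX17 were listed at 0 in every library. FOXA2, the relative of FOXA1, read 1.73 and 1.58 FPKM in the wild-type pair against 0.44 and 1.06 FPKM in the knockdown pair, opposite in direction to FOXA1, with a change that was not called (limma adjusted p = 0.203).

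The genes that mark stomach and gut differentiation were nearly silent. Of 29 intestinal genes, all 29 stayed below 1 FPKM in every library, among them MUC2, VIL1, CDH17 and LGALS4, and 11 were listed at 0 throughout. OLFM4, CDHR2 and CEACAM6 had the highest means of that list and did not exceed 0.75, 0.51 and 0.26 FPKM. Of 23 gastric genes, 19 stayed below 1 FPKM in every library, including the mucin MUC5AC and the trefoil factors TFF1 and TFF2, and VSIG1 and PSCA reached 1.14 and 1.26 FPKM at most. MUC1, an epithelial mucin not limited to the stomach, read 1.70 and 0.95 FPKM in the wild-type pair against 4.71 and 4.42 FPKM in the knockdown pair, a log2 change of 1.28 (limma adjusted p = 0.0629). CTSE, the aspartic protease cathepsin E, lay between 3.83 and 6.56 FPKM and overlapped between the groups. Of 16 liver and pancreas genes, SERPINA1 alone reached 1 FPKM, at 5.19 and 5.57 FPKM in the wild-type pair against 1.29 and 3.90 FPKM in the knockdown pair. So while the 10 factors are known for stomach and gut lineages, most differentiation markers of these tissues were at or near 0 in this line.

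Many epithelial genes and a minority of the squamous genes were abundant in the same libraries. Of 20 epithelial genes, 19 passed the filter, and their median log2 change was 0.13. At 0.10 limma called 2 of the 19, both higher (10.5%, beside 10.4% of all genes tested), and 0 at 0.05. An unadjusted p under 0.05 was met by 8, beside 25.9% of all genes. KRT19, a simple epithelial keratin, read 655 and 661 FPKM in the wild-type pair against 1047 and 1153 FPKM in the knockdown pair (limma adjusted p = 0.0556), and SPINT1, a protease inhibitor, had a log2 change of 0.50 (0.0837). KRT8, KRT18 and KRT7 lay between 983 and 2488 FPKM in all libraries. Of 16 squamous genes, 10 stayed below 1 FPKM in every library, among them KRT14, KRT13, IVL and DSG3, and 4 were listed at 0 throughout. Of the 5 tested, limma called 0 at 0.05 and 1 at 0.10, where it called 10.4% of all genes. An unadjusted p under 0.05 was met by 3 of the 5, beside 25.9% of all genes. The gene called was KRT5, a basal keratin, which was lower in the knockdown. It read 23.0 and 23.7 FPKM in the wild-type pair against 13.8 and 10.6 FPKM in the knockdown pair (limma adjusted p = 0.0623). TP63, the basal epithelial factor, read 18.47 and 18.04 FPKM in the wild-type pair against 14.4 and 17.2 FPKM in the knockdown pair. S100A2 stood at 1559, 1481, 1392 and 3139 FPKM, KRT6A at 26.3, 25.4, 50.9 and 116 FPKM and SFN at 118, 112, 81.8 and 96.3 FPKM, in the order wild type 1 and 2, knockdown 1 and 2. S100A2 and KRT6A were highest in MYC knockdown replicate 2, the library in which SOX9 and FOXA1 were also highest. Their part in the values of SOX9 and FOXA1 was not tested.

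**Figure D4:**
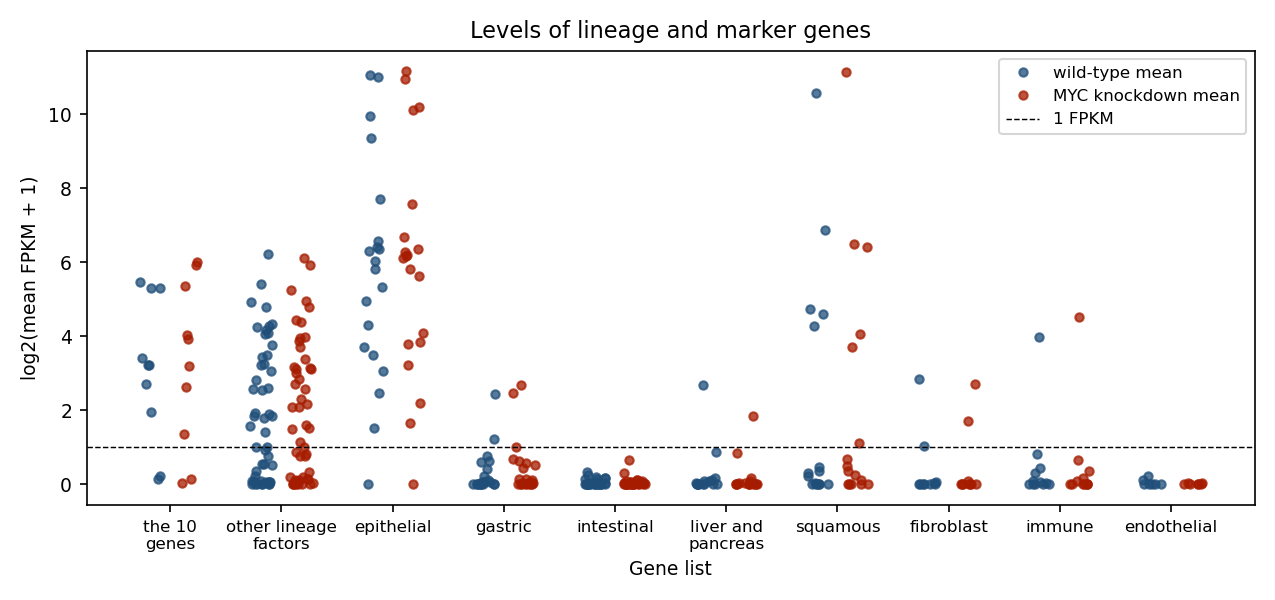
Wild-type and MYC knockdown means, as log2(mean FPKM + 1), of the genes of each list, 1 point per gene and group, with a dashed line at 1 FPKM. Epithelial genes and a few squamous genes are high, and nearly all gastric and intestinal genes lie below the line.

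Markers of other cells were low. The summed level of 7 endothelial genes ran from 0.24 to 0.29 FPKM in wild type and from 0 to 0.09 FPKM in the knockdown. PTPRC, a marker of white blood cells, and COL1A2, COL3A1 and DCN of fibroblasts were listed at 0 in every library. The summed level of 10 fibroblast genes was 7.51 and 7.03 FPKM in wild type and 10.6 and 5.24 FPKM in the knockdown, mostly COL1A1. That of 12 immune genes was 13.9 and 18.6 FPKM in wild type and 22.7 and 23.2 FPKM in the knockdown, mostly CD68, a lysosomal protein that epithelial lines also express. In RNA from a whole culture, fewer cells with a gene on and less RNA per cell cannot be told apart.

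The genes with the most similar pattern were sought among 9200 protein-coding genes with a mean of at least 5 FPKM, by the root mean square gap between log2 differences from the wild-type mean over the 4 libraries. For SOX9 the nearest were ATP6V1H, MOK and SDC1, at gaps of 0.0081, 0.022 and 0.022. KLF5 had RND3, ZDHHC12 and TMEM19 at 0.015, 0.017 and 0.020, and FOXA1 had SOCS6, FAM114A1 and COX20 at 0.047, 0.050 and 0.052. For KLF4 they were STARD13, APOL2 and UNC93B1 at 0.016, 0.022 and 0.023. ELF3 lay nearest to SNX8, ZBTB11 and VAPB, GATA4 to PEMT, PSMB10 and WRAP73, and GATA6 to RTN4IP1, HDAC8 and TMEM216, with gaps from 0.0057 to 0.024. None of these 7 factors was among the 3 nearest genes of another. CDX2, SOX2 and HNF4A had means under 5 FPKM and were not searched. These names rest on 4 libraries and are a description only.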

How the data were processed

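Per the labels' protocols, RNA was extracted with Trizol and made into Illumina libraries, and the submitters' processing notes name STAR and RSEM. The sources used here do not state versions, genome build, annotation or strand. The deposited values are taken as FPKM per gene, rounded to 2 decimals by the authors. This unit was inferred, since the column sums differ (674328 to 739335 over 344810 rows); TPM with rows left out is also possible. Only the 53777 Ensembl rows were used.

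Groups and replicates came from the titles. The 12953 genes that reached 1 FPKM in 2 or more libraries were fitted as log2(FPKM + 1) by limma 3.58.1 under R 4.3.3 (lmFit, then eBayes allowing for a mean trend). P-values were adjusted over all of them by the Benjamini-Hochberg method and read at 0.05 and 0.10. Changes are knockdown minus wild type and are understated for low genes. Intervals are 95% and use the moderated degrees of freedom (median 4.6).

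The members, the lists and the 0.10 threshold were chosen with earlier results of these data known. Named from each list were the genes called at 0.10 whose mean reached 5 FPKM (at most 6 a direction), and the 3 of highest mean. Of the list genes, PECAM1 was not matched. Depth was inferred from steps in genes with 1 transcript of 500 to 1500 bases. Promoter windows came from RefSeq and gene positions from GENCODE 29, whose build need not be the authors'. Alternatives were the pseudocount (0.1), 2 filters on low values, a replicate block, each library left out, 3 scalings and no mean trend.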

Additional observations from a re-analysis of the deposited data

How the results depend on the processing

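KLF5, SOX9, FOXA1 and KLF4 kept a higher estimate and CDX2 a lower one under every alternative that could test them. Most of this was fixed in advance. Their groups do not overlap, so leaving out a library or changing the pseudocount could not reverse the direction. The filters, the replicate block and the fit with no mean trend leave the estimate itself unchanged. Only the 3 scalings could have reversed it. The log2 change ran from 0.54 to 0.81 for KLF5, 0.50 to 0.73 for SOX9, 0.56 to 0.79 for FOXA1, 0.30 to 0.86 for KLF4 and −0.85 to −0.49 for CDX2. The count called at an adjusted p of 0.10 was 3 of 8. It was 0 with no filter on low values, where 24879 genes were tested, and ran from 0 to 5 with 1 library left out, and the count at 0.05 ran from 0 to 4 there. The counts of 5 and 4 came without a knockdown library, where limma called 5304 and 5359 of all 12953 genes at 0.10 and 3384 and 3413 (26.1% and 26.3%) at 0.05. The counts of 0 came without a wild-type library, where it called 0 and 1 at 0.10 and 0 at 0.05. At 0.05, 310 genes were called with the mean filter and 313 with median of ratios, none of them 1 of the 10 factors. At 0.10, 1349 genes became 2230 with equal FPKM sums and 838 with no mean trend. In the fits with 1 library left out, a single library stands for its group and borrows the spread of the other. The direction of the small estimates was not stable: with equal FPKM sums GATA4, GATA6 and ELF3 were at 0.013, 0.051 and 0.0028, on the other side of 0. With 1 library left out, the estimate ran from −0.23 to 0.16 for GATA6 and from −0.21 to 0.075 for GATA4. The replicate numbers share no stated source, and deviations of same-numbered libraries were not correlated (r = −0.0059 across 12953 genes). With the replicate block 2 of the 8 were called at 0.10, FOXA1 being the call lost (adjusted p = 0.108), and 723 of all genes against 1349. The mean filter of 5 FPKM could not test CDX2. With 2 libraries a group and an inferred depth, SOX2 and HNF4A were too low for any comparison.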
